A study of Mus musculus with 12 samples.

Results

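The T-cell receptor complex and its proximal signalling machinery are encoded here by 39 genes, which were all found among the 56691 gene IDs of the count table, 1 ID each. They were taken by symbol and split by role into 9 receptor and co-receptor chains, 6 kinases (with the phosphatase CD45 among them), 12 adaptors, exchange factors and signal relays, and 12 brakes. All 39 passed the filter on low counts that left 15935 genes for testing.

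The receptor recognises peptide on MHC molecules through its alpha and beta chains, which have no signalling tail of their own. The CD3 chains and the zeta chain carry the signal into the cell, where Lck phosphorylates them, Zap70 docks on them, and the adaptors Lat and SLP-76 assemble the complex that activates phospholipase C gamma 1, Ras and NF-kappaB. CD8 binds MHC class I and brings Lck to the receptor. Phosphatases, ubiquitin ligases and diacylglycerol kinases limit the signal.

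The cells were naive CD8+ T cells from mouse spleen, either Senp1 WT or Senp1 CKO (conditional knockout). The targeted gene codes for a protease that strips the modifier SUMO from proteins. Both genotypes were left unstimulated (0 h) or were stimulated for 48 h with anti-CD3 at 5 µg/ml and anti-CD28 at 1 µg/ml, which engage the receptor complex itself and the costimulatory receptor CD28. Each of the 4 groups (WT 0 h, WT 48 h, CKO 0 h, CKO 48 h) had 3 libraries. The sources used here do not give the Cre line, the deleted exons, the age and strain of the mice, or whether each replicate was its own animal. The p-values therefore reflect the spread of these libraries, which may be technical.

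Library totals ran from 15900529 to 22427151 counts. The level of a gene is its CPM, its share of the library's counts after TMM scaling, with the SD over 3 libraries. Changes are log2 changes with their standard error (SE), and a gene was called higher or lower at an edgeR adjusted p under 0.05. At 0 h the level of Senp1 itself was 82.4 ± 3.99 CPM in the WT libraries and 57.0 ± 2.64 CPM in the CKO libraries, and at 48 h it was 161.7 ± 10.5 and 70.3 ± 4.13 CPM. It was thus lower in CKO at both times, by a log2 change of -0.53 ± 0.070 (adjusted p = 6.26e-05) and -1.20 ± 0.069 (adjusted p = 5.43e-10), but was not lost from the counts. The labelled cell type carried its markers in every group: Cd8a had group means of 366.8 to 938.8 CPM, and Cd4, which marks the other main T-cell lineage, had group means of 40.1 to 55.6 CPM.

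Markers of other cells were also present and moved with the groups. The summed level of 6 gamma-delta T-cell markers was 46.3 to 76.3 CPM in WT and 110.5 to 139.4 CPM in CKO at 0 h, and 12.7 to 20.6 and 43.1 to 52.9 CPM at 48 h. At each time 4 of the 6 were called higher in CKO, beside 4.10% of all tested genes at 0 h and 2.35% at 48 h. Over 15 B-cell markers the sum was 431.6 to 806.8 CPM in WT and 308.2 to 385.6 CPM in CKO at 0 h, and 52.0 to 92.9 and 65.8 to 84.8 CPM at 48 h. WT replicate 1 held the highest B-cell and gamma-delta sums of its genotype at both times. The sum of 7 natural killer markers ran from 179.4 to 207.9 CPM in WT and 175.6 to 367.6 CPM in CKO at 0 h, and from 15.8 to 32.0 and 22.7 to 40.2 CPM at 48 h. For 12 myeloid markers it ran from 84.0 to 146.4 and 77.3 to 131.9 CPM at 0 h, and from 32.6 to 49.1 and 27.9 to 39.6 CPM at 48 h. The 4 CD4 T-cell markers summed to between 56.7 and 105.5 CPM throughout. Of the 15 B-cell markers 1 was called lower in CKO at each time, beside 3.38% of all tested genes at 0 h and 2.19% at 48 h. Of the 7 natural killer markers 1 was called higher in CKO at 0 h and 0 at 48 h. No CD4 marker and no tested myeloid marker was called between the genotypes. None of the defining markers Trdc, Ncr1, Lyz2 and Cd4 was at 0 in a whole group, and the part of these cells in the results below was not tested.

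After 48 h of stimulation most of the receptor machinery was at a lower share of the RNA in both genotypes. In WT cells 31 of 39 genes fell, 2 rose and 6 were not called. In CKO cells 34 fell, 2 rose and 3 were not called. The background was high, since 77.9% of all tested genes were called in the WT contrast (39.1% lower, 38.7% higher) and 77.7% in the CKO contrast (39.2% lower, 38.5% higher). The median log2 change of the 39 genes was -0.79 in WT and -0.95 in CKO, beside -0.03 and -0.04 over all genes tested. The same 31 genes fell in both genotypes, and Lcp2 and Cblb rose in both. The share of all tested genes called in the same direction in both genotypes was not computed. Counting log2 changes of at least 1, 13 genes fell and 1 rose in WT (24.8% and 22.5% of all genes), and 14 fell and 1 rose in CKO (25.0% and 22.3%). Both activation contrasts give each genotype's own response, with no shared libraries, while the comparisons of genotypes further on use the same 12 libraries.

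Summed over the 39 genes, the level was 16593 ± 255 CPM in WT and 16749 ± 147 CPM in CKO at 0 h, which is 1.66% and 1.67% of the counts. At 48 h it was 9516 ± 299 CPM in WT and 9136 ± 28.3 CPM in CKO. In bulk RNA, fewer cells of a type and less RNA per cell cannot be told apart, and a lower CPM is a lower share of the RNA, not fewer molecules per cell.

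**Figure D1:**
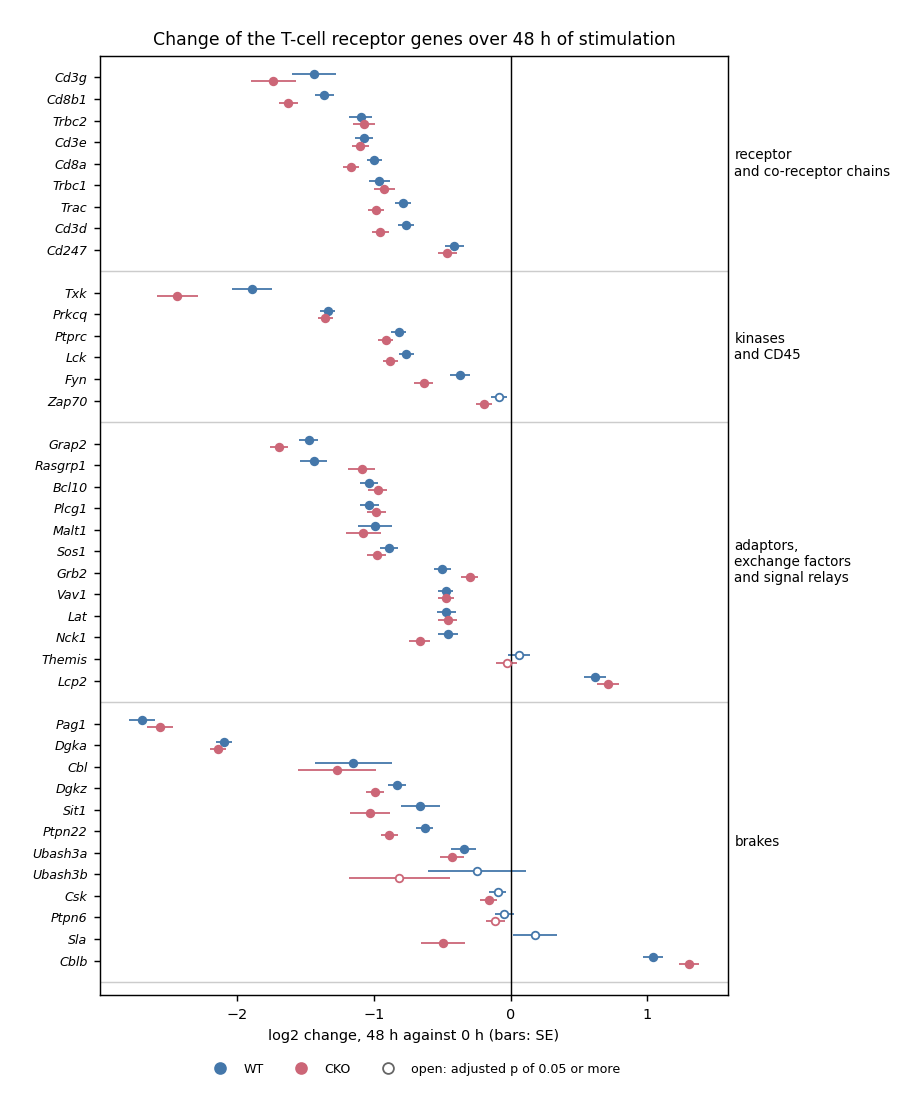
Log2 change (48 h against 0 h) of the 39 genes in WT (blue) and CKO (red), grouped by role; bars are the SE and open points were not called. Most points lie left of 0 in both genotypes, with Cblb and Lcp2 on the right and Pag1, Txk and Dgka farthest to the left.

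The receptor and co-receptor chains fell without exception, 9 of 9 in both genotypes. Their median log2 change was -0.996 in WT and -1.07 in CKO, and in no chain did the libraries of 0 h and 48 h overlap. Non-overlap was common in the table: 79.4% of all tested genes showed it in WT and 81.0% in CKO.

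Cd3e, the CD3 epsilon chain, had 368.9, 410.7 and 428.1 CPM in the WT libraries at 0 h and 176.1, 202.2 and 197.2 CPM at 48 h. The CKO libraries had 384.8, 387.0 and 373.8 CPM at 0 h and 176.5, 179.3 and 179.7 CPM at 48 h. Every 48 h library lay below every 0 h library, and WT and CKO overlapped at both times. The log2 change was -1.07 ± 0.065 in WT (adjusted p = 9.25e-12) and -1.10 ± 0.065 in CKO (adjusted p = 6.60e-12).

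Cd247, the zeta chain with most of the phosphorylation motifs of the complex, moved least of the chains. It had 271.4, 276.5 and 281.6 CPM in WT at 0 h and 235.8, 194.1 and 194.2 CPM at 48 h. In CKO it had 257.4, 261.6 and 259.1 CPM at 0 h and 189.9, 193.8 and 181.0 CPM at 48 h. WT replicate 1 was the highest of the 48 h libraries. Its log2 change was -0.41 ± 0.068 in WT (adjusted p = 1.78e-05) and -0.46 ± 0.068 in CKO (adjusted p = 4.36e-06). Exons of Cd247 overlap Pou2f1 on the opposite strand, which had 17882 counts over all libraries beside 50704 for Cd247, and the strand setting of the counting is not known.

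Cd3g, the gamma chain of CD3, had the largest change of the chains in WT. Its WT libraries had 283.0, 332.6 and 323.7 CPM at 0 h and 85.8, 144.6 and 116.7 CPM at 48 h. The CKO libraries had 288.6, 309.2 and 295.7 CPM at 0 h and 82.6, 101.0 and 85.1 CPM at 48 h. Replicate 1 was lowest in each group, and the WT libraries at 48 h were spread widely. On the log2 scale Cd3g changed by -1.44 ± 0.161 in WT (adjusted p = 1.27e-05) and by -1.73 ± 0.164 in CKO (adjusted p = 3.05e-06). Cd3d, the delta chain, fell by 0.77 in WT and by 0.95 in CKO on the log2 scale.

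The alpha chain is read through its constant gene Trac. WT libraries had 538.6, 515.5 and 572.9 CPM at 0 h and 310.9, 311.6 and 320.0 CPM at 48 h, and CKO libraries had 552.9, 613.2 and 583.3 CPM at 0 h and 289.8, 305.4 and 289.0 CPM at 48 h. The log2 change was -0.79 ± 0.058 in WT (adjusted p = 2.09e-10) and -0.98 ± 0.059 in CKO (adjusted p = 6.82e-12). Both beta-chain constant genes fell as well, Trbc1 by 0.96 in WT and 0.92 in CKO and Trbc2 by 1.10 and 1.07 on the log2 scale. Trbc1 took 42.8% to 49.4% of the counts of this pair in the 12 libraries, but the genes are near-identical copies and reads may have been divided between them by the authors' counting.

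The variable segments, which rearrangement brings close to the constant genes, are not members of the set. As sums they moved in the same direction. The alpha V segments (128 IDs) summed to 133.5 ± 10.5 CPM in WT at 0 h and 69.0 ± 2.54 CPM at 48 h, and to 145.1 ± 7.41 and 65.7 ± 2.25 CPM in CKO. The beta V segments (35 IDs) summed to 381.0 ± 13.8 CPM in WT at 0 h and 179.8 ± 14.02 CPM at 48 h, and to 377.2 ± 14.1 and 180.0 ± 6.22 CPM in CKO. In both sums the 0 h and 48 h libraries stood apart, and WT and CKO overlapped at each time. Of 22 beta V segments tested singly, 20 fell in WT and 19 in CKO, and none rose.

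**Figure D2:**
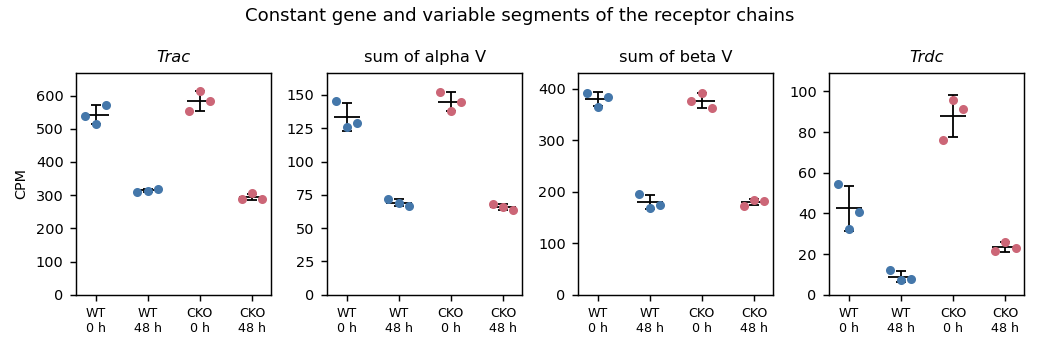
CPM of Trac, of the summed alpha V and beta V segments, and of the gamma-delta constant gene Trdc in each library; the horizontal mark and bar are the mean and SD of 3 libraries. The alpha and beta measures fall from 0 h to 48 h in both genotypes, and Trdc is higher in the CKO libraries (mean 87.8 against 42.6 CPM at 0 h).

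Both co-receptor genes fell in both genotypes. Cd8a encodes the alpha chain of CD8. It had 903.8, 968.6 and 944.0 CPM in WT at 0 h and 461.7, 484.0 and 466.7 CPM at 48 h. In CKO it had 820.0, 853.5 and 792.7 CPM at 0 h and 350.5, 386.0 and 363.9 CPM at 48 h. Its 4 groups did not overlap, in the order WT 0 h, CKO 0 h, WT 48 h and CKO 48 h. The activation change was -0.996 ± 0.0566 in WT (adjusted p = 3.09e-12) and -1.16 ± 0.057 in CKO (adjusted p = 2.90e-13) on the log2 scale.

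Cd8b1, the beta chain of CD8, had 800.1, 711.9 and 807.3 CPM in WT and 749.6, 813.9 and 762.4 CPM in CKO at 0 h. At 48 h it had 334.1, 286.1 and 282.4 CPM in WT and 258.2, 241.1 and 255.0 CPM in CKO. The genotypes overlapped at 0 h and not at 48 h. The activation change was -1.36 ± 0.071 in WT (adjusted p = 7.44e-13) and -1.62 ± 0.071 in CKO (adjusted p = 5.64e-14).

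Of the kinases and CD45, 5 of 6 fell in WT and 6 of 6 in CKO, with medians of -0.79 and -0.90 on the log2 scale. The exception in WT was Zap70, the kinase that binds the phosphorylated CD3 and zeta tails. Its WT libraries had 147.8, 151.7 and 148.8 CPM at 0 h and 134.5, 140.2 and 147.2 CPM at 48 h. The CKO libraries had 143.3, 142.8 and 139.6 CPM at 0 h and 122.0, 130.5 and 119.3 CPM at 48 h. The 48 h libraries lay just under the 0 h libraries in each genotype. For Zap70 the log2 change was -0.09 ± 0.057 in WT (adjusted p = 0.169) and -0.20 ± 0.058 in CKO (adjusted p = 0.00473), and the difference between the 2 responses was -0.11 ± 0.081 (adjusted p = 0.653). The CKO call ended without a count filter (adjusted p = 0.0607), and with a stricter filter the WT change was called (-0.13, adjusted p = 0.0398).

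Lck, the kinase that starts the phosphorylation, had 726.2, 675.8 and 709.2 CPM in WT at 0 h and 424.0, 407.0 and 414.1 CPM at 48 h. In CKO it had 704.1, 746.5 and 680.4 CPM at 0 h and 386.0, 398.3 and 374.5 CPM at 48 h. It fell by 0.76 ± 0.056 in WT (adjusted p = 1.68e-10) and by 0.88 ± 0.056 in CKO (adjusted p = 1.87e-11) on the log2 scale. Fyn, the other Src-family kinase of the set, fell by 0.37 and 0.64.

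Txk, a Tec-family kinase, had the largest change of this group. WT libraries had 150.4, 191.8 and 172.7 CPM at 0 h and 48.7, 49.1 and 41.0 CPM at 48 h, and CKO libraries had 167.6, 142.2 and 167.8 CPM at 0 h and 24.8, 37.1 and 26.4 CPM at 48 h. The log2 change was -1.89 ± 0.146 in WT (adjusted p = 1.65e-07) and -2.43 ± 0.152 in CKO (adjusted p = 2.10e-08). Prkcq, the protein kinase C theta that links the receptor to NF-kappaB, fell by 1.34 and 1.35. Ptprc encodes CD45, which removes the inhibitory phosphate from Lck and fell by 0.82 in WT and 0.91 in CKO.

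Among the adaptors, exchange factors and relays 10 of 12 fell, 1 rose and 1 was not called, in WT and in CKO alike. The medians were -0.69 in WT and -0.82 in CKO. Lcp2, which encodes SLP-76, the partner of Lat, rose. It had 273.4, 272.3 and 262.0 CPM in WT at 0 h and 362.8, 443.2 and 432.3 CPM at 48 h. In CKO it had 281.8, 295.1 and 298.3 CPM at 0 h and 517.1, 413.3 and 501.1 CPM at 48 h. All 48 h libraries lay above all 0 h libraries, at a log2 change of 0.62 ± 0.081 in WT (adjusted p = 1.28e-06) and 0.71 ± 0.081 in CKO (adjusted p = 1.99e-07).

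Its scaffold partner Lat went the other way. Lat had 368.9, 332.1 and 356.3 CPM in WT at 0 h and 264.4, 243.1 and 255.5 CPM at 48 h, and in CKO 311.6, 353.5 and 287.3 CPM at 0 h and 223.8, 236.9 and 232.1 CPM at 48 h. The log2 change was -0.47 ± 0.070 in WT (adjusted p = 4.73e-06) and -0.46 ± 0.070 in CKO (adjusted p = 6.70e-06).

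Grap2, the adaptor Gads that joins Lat to SLP-76, fell the most of this group in WT. It had 807.5, 873.0 and 813.8 CPM in WT at 0 h and 269.8, 320.5 and 306.0 CPM at 48 h. In CKO it had 770.4, 744.5 and 728.2 CPM at 0 h and 224.6, 244.6 and 224.1 CPM at 48 h. The CKO libraries lay below the WT libraries at both times. The activation change was -1.48 ± 0.067 in WT (adjusted p = 8.10e-14) and -1.69 ± 0.067 in CKO (adjusted p = 1.12e-14).

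The Ras branch fell. Rasgrp1, the diacylglycerol-dependent exchange factor for Ras, changed by -1.44 in WT and -1.09 in CKO, Sos1, a second exchange factor, by -0.89 and -0.98, and Grb2, which carries Sos1 to Lat, by -0.50 and -0.30. Plcg1, the phospholipase C gamma 1 that makes diacylglycerol, fell by 1.03 and 0.98, although its exons overlap Zhx3 on the opposite strand (5492 counts beside 45852). Bcl10 and Malt1, which form the relay to NF-kappaB, changed by -1.03 and -0.99 in WT and by -0.97 and -1.08 in CKO. Vav1, a guanine nucleotide exchange factor, changed by -0.48 and -0.47, and Nck1, an adaptor to the actin cytoskeleton, by -0.46 and -0.66. Themis, a T-lineage signalling protein, was not called in either genotype, at 0.06 ± 0.078 in WT (interval of 2 SE, -0.10 to 0.22) and -0.03 ± 0.078 in CKO (-0.19 to 0.13).

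The brakes were the most mixed group. In WT 7 of 12 fell, 1 rose and 4 were not called, and in CKO 9 fell, 1 rose and 2 were not called, with medians of -0.49 and -0.85. Cblb, a ubiquitin ligase that restrains receptor signalling, rose. Its WT libraries had 187.3, 180.4 and 193.1 CPM at 0 h and 420.2, 365.2 and 367.7 CPM at 48 h. The CKO libraries had 170.0, 164.3 and 177.6 CPM at 0 h and 452.0, 375.3 and 438.5 CPM at 48 h. The 0 h and 48 h libraries lay far apart, at a log2 change of 1.04 ± 0.073 in WT (adjusted p = 8.73e-11) and 1.31 ± 0.074 in CKO (adjusted p = 2.72e-12).

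Its relative Cbl fell by 1.15 in WT (adjusted p = 0.00489) and 1.27 in CKO (adjusted p = 0.00304), with a wide spread in WT that is described below. Pag1, which anchors the inhibitory kinase Csk at the membrane, fell the most of all 39 genes. It had 300.7, 301.7 and 277.4 CPM in WT at 0 h and 37.1, 48.1 and 50.5 CPM at 48 h, and in CKO 284.9, 282.8 and 266.2 CPM at 0 h and 42.4, 49.0 and 50.04 CPM at 48 h. Pag1 thus changed by -2.70 ± 0.095 on the log2 scale in WT (adjusted p = 1.71e-14) and -2.56 ± 0.095 in CKO (adjusted p = 3.51e-14).

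Both diacylglycerol kinases fell, Dgka from 1006.3 ± 63.4 to 235.7 ± 7.56 CPM in WT and from 962.8 ± 20.1 to 218.7 ± 9.49 CPM in CKO, a log2 change of -2.09 and -2.14. Dgka overlaps Pmel on the opposite strand (7663 counts beside 128223). Dgkz changed by -0.83 in WT and -0.99 in CKO. Ptpn22, a phosphatase that acts on Lck and Zap70, fell by 0.63 and 0.89, Ubash3a by 0.34 and 0.43, and Sit1, a membrane adaptor that recruits inhibitory proteins, by 0.66 and 1.03. Csk itself was not called in WT (-0.09 ± 0.062) and was lower in CKO by a small margin (-0.16 ± 0.062, adjusted p = 0.0248), a call that ended without CKO 0 h replicate 1 or 2 or any 1 of the CKO 48 h libraries (adjusted p of 0.0584, 0.172, 0.0594, 0.0629 and 0.0588), or without a count filter (adjusted p = 0.139). Ptpn6, the phosphatase SHP-1, was not called at -0.05 ± 0.070 and -0.11 ± 0.070, nor was Ubash3b at -0.25 ± 0.360 and -0.81 ± 0.367. For Ptpn6 the CKO change was called with a stricter count filter (-0.16, edgeR adjusted p = 0.0462) and in a fit of the compared groups only (-0.15, adjusted p = 0.0234). The CKO change of Ubash3b was called by DESeq2 (adjusted p = 0.0348), in a fit of the compared groups only (8.61e-07), without WT replicate 1 of both times (1.17e-06) and with a replicate block (0.0354).

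Within the 300 bases around the transcription start (250 before and 50 after, RefSeq annotation of GRCm38.p6), 47 windows of 32 members were at hand. Shown are the windows of both genes that rose, Cblb and Lcp2, and of Cd8a and Grap2, which fell and also differed between the genotypes. Capitals mark the ETS core words AGGAAG or CGGAAG on either strand. The windows are Cblb at chr16:52031299-52031598, Lcp2 at chr11:34046678-34046977, Cd8a at chr6:71373177-71373476 and Grap2 at chr15:80623233-80623532, all on the plus strand.
Cblb: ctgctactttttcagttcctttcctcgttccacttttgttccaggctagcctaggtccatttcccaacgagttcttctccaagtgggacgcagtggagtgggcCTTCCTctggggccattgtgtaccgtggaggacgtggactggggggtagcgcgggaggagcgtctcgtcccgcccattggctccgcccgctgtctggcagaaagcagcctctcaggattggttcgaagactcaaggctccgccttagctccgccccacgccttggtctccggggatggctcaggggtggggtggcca
Lcp2: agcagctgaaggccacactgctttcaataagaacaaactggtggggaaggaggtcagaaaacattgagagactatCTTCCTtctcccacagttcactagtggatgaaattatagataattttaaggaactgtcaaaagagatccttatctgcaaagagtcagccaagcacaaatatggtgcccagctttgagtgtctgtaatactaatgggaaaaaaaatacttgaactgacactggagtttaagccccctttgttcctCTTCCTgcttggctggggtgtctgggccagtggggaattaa
Cd8a: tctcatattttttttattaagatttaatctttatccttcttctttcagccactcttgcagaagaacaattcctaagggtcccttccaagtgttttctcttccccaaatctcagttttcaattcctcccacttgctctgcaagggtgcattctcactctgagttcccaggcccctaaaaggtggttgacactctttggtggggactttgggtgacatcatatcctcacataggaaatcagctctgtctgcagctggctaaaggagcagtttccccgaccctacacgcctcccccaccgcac
Grap2: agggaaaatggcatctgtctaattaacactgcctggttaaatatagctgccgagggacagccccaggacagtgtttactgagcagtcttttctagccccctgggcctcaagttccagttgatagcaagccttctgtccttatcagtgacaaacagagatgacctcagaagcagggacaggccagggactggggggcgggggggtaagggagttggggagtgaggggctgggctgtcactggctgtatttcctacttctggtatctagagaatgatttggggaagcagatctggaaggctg
Cblb held 1 such word and Lcp2 2, while Cd8a and Grap2 held none. The E-box word CAGNTG was found 0 times in Cblb, 1 time in Lcp2, 1 time in Cd8a and 2 times in Grap2. Windows of rising and falling genes were not compared beyond these examples. An ETS word stood in 31 of the 47 member windows (66.0%) and in 46.5% of 32851 windows of all genes. A RUNX word (TGTGGT) stood in 6 of 47 (12.8%, all windows 16.8%), an E-box (CAGNTG) in 28 of 47 (59.6%, all windows 51.4%) and an AP-1 word (TGANTCA) in 0 of 47 (all windows 7.81%). Both strands were read and matches of different motifs could overlap. These are letter matches and no measure of binding.

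The order of levels was compared per length, as RPKM on approximate exon lengths from the GRCm38 annotation. Trbc2, Trac, Trbc1 and Cd8b1 ranked 1 to 4 of 39 in all 4 groups, and Ubash3b ranked 39. In WT, Trbc2 stood at 748.1 ± 66.4 RPKM at 0 h and 349.7 ± 31.1 RPKM at 48 h, and Trac at 580.1 ± 30.9 and 336.0 ± 5.39 RPKM. The neighbours Trac, Trbc1 (544.1 ± 65.5) and Cd8b1 (521.3 ± 35.8) lay within their spread at 0 h in WT. Lcp2 moved from rank 18 to rank 8 in WT and from 18 to 7 in CKO, Cblb from 33 to 21 and from 33 to 18, and Dgka from 7 to 14 and from 8 to 14.

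At 0 h the genotypes differed in 2 of 39 genes. Cd8a was lower and Sla higher in CKO, while 7.48% of all tested genes were called (3.38% lower and 4.10% higher). The median log2 difference, CKO against WT, was -0.06 over the 39 genes and -0.01 over all genes. The libraries of WT and CKO did not overlap in 13 of 39 genes, where 24.6% of all genes showed this.

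Cd8a differed by -0.19 ± 0.056 (adjusted p = 0.0423; 938.8 ± 32.7 CPM in WT and 822.1 ± 30.5 CPM in CKO). The call ended without WT 0 h replicate 2 or 3 or CKO 0 h replicate 1 or 3, with adjusted p of 0.146, 0.105, 0.114 and 0.178. It also ended with unscaled library totals (0.0690), without a count filter (0.0580) and in a fit of the compared groups only (0.0566). Sla, the Src-like adaptor that lowers receptor levels at the surface, had 328.8, 258.0 and 242.3 CPM in WT and 449.7, 334.2 and 511.6 CPM in CKO at 0 h. The lowest CKO library was barely above the highest WT library. The log2 difference was 0.64 ± 0.160 (adjusted p = 0.0395), and this call ended without those same 4 libraries (adjusted p of 0.129, 0.124, 0.111 and 0.107), without a count filter (0.0904) and in a fit of the compared groups only (0.201). At 48 h Sla had 274.1, 329.8 and 332.9 CPM in WT and 307.7, 297.2 and 314.2 CPM in CKO, and the groups overlapped (-0.03 ± 0.159, adjusted p = 0.968). Its activation change was 0.18 ± 0.159 in WT (adjusted p = 0.331) and -0.50 ± 0.159 in CKO (adjusted p = 0.0160), and the latter call ended without CKO 0 h replicate 3 (adjusted p = 0.0561) or CKO 48 h replicate 2 (adjusted p = 0.0565), without a count filter (adjusted p = 0.0644), or with a replicate block within each genotype (adjusted p = 0.0613).

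**Figure D3:**
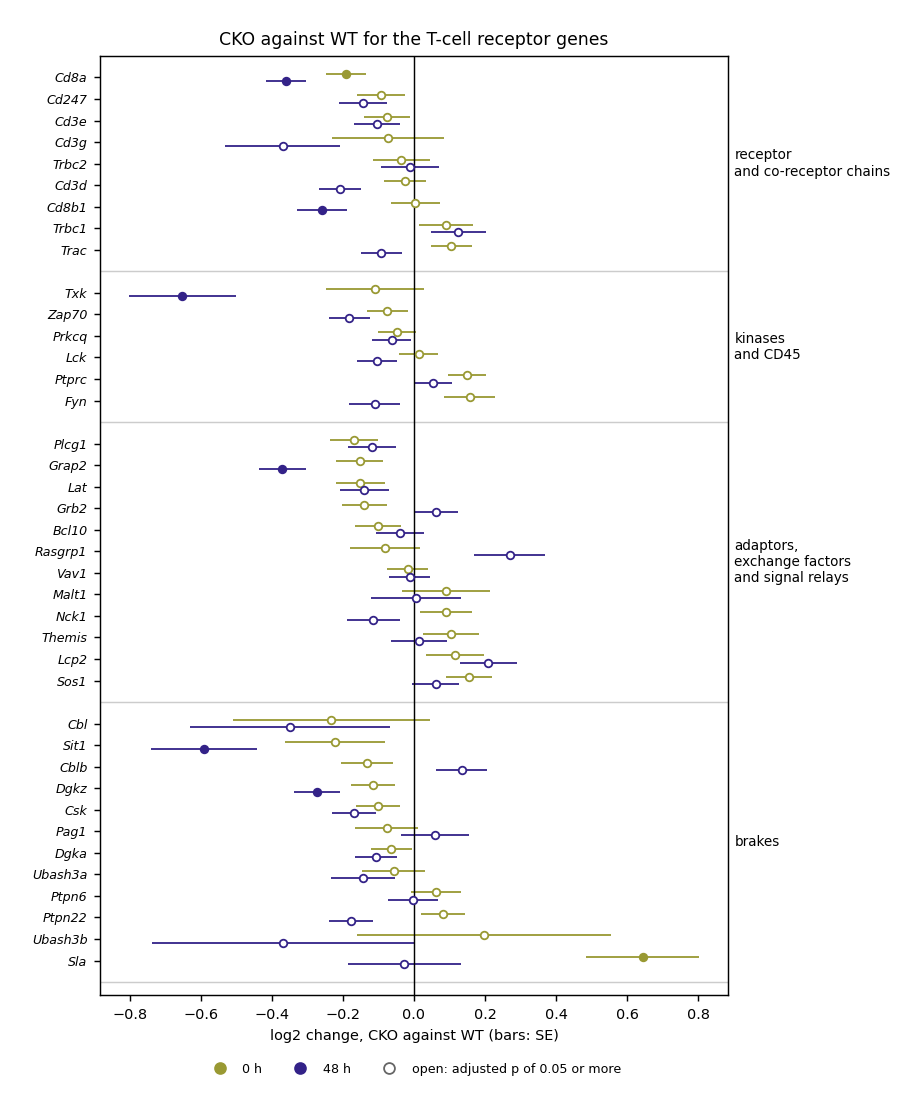
Log2 difference, CKO against WT, of the 39 genes at 0 h (olive) and 48 h (dark blue), grouped by role; bars are the SE and filled points were called. At 0 h Cd8a and Sla are filled, and at 48 h Cd8a, Cd8b1, Txk, Grap2, Dgkz and Sit1, all to the left of 0.

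At 48 h 6 of 39 genes were lower in CKO and none was higher, beside 4.54% of all genes called (2.19% lower and 2.35% higher). None of the 39 was called with a log2 difference of 1 or more, as 0.766% of all genes were downwards and 1.37% upwards at 0 h, and 0.489% and 1.00% at 48 h. The lower genes came from all 4 roles: Cd8a, Cd8b1, Txk, Grap2, Dgkz and Sit1. The median log2 difference was -0.11, and -0.01 over all genes. Non-overlap of the libraries was seen in 19 of 39 genes and in 23.7% of all genes.

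The calls of Cd8a and Grap2 held without any single library. Cd8a differed by -0.36 ± 0.056 (adjusted p = 0.00048; 470.8 ± 11.7 CPM in WT and 366.8 ± 18.0 CPM in CKO), and leaving out single libraries gave -0.39 to -0.33. Grap2 differed by -0.37 ± 0.066 (adjusted p = 0.00175; 298.8 ± 26.1 and 231.1 ± 11.6 CPM), and leaving out single libraries gave -0.45 to -0.32.

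The other 4 calls rested on particular libraries. Cd8b1 differed by -0.26 ± 0.070 (adjusted p = 0.0387; 300.9 ± 28.9 and 251.4 ± 9.10 CPM), and its call ended without WT 48 h replicate 1 or any 1 CKO 48 h library, with adjusted p of 0.101, 0.0851, 0.145 and 0.109, and also with unscaled library totals (0.0505) and in a fit of the compared groups only (0.0713). Txk differed by -0.65 ± 0.152 (adjusted p = 0.0338; 46.3 ± 4.59 and 29.4 ± 6.68 CPM), ending without WT 48 h replicate 1 or 2 or CKO 48 h replicate 1 or 3 (0.137, 0.0994, 0.0867 and 0.134).

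Dgkz, the zeta form of the kinases that consume diacylglycerol, had 310.3, 324.2 and 337.7 CPM in WT and 310.0, 315.6 and 271.9 CPM in CKO at 0 h, and 179.5, 190.1 and 176.9 CPM in WT and 146.4, 155.0 and 150.7 CPM in CKO at 48 h. It overlapped at 0 h and not at 48 h, where the difference was -0.27 ± 0.064 (adjusted p = 0.0154), a call that ended without WT 48 h replicate 2 or CKO 48 h replicate 1 or 3 (adjusted p of 0.0643, 0.0940 and 0.0711). Sit1 had 12.2, 14.8 and 13.9 CPM in WT and 12.8, 11.7 and 10.5 CPM in CKO at 0 h, and 9.04, 7.47 and 9.40 CPM in WT and 5.55, 6.26 and 5.41 CPM in CKO at 48 h. It had the fewest counts of the 6, differed by -0.59 ± 0.149 at 48 h (adjusted p = 0.0254), and its call ended without WT 48 h replicate 1 or 3 or CKO 48 h replicate 1 or 3 (0.0580, 0.119, 0.103 and 0.126).

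**Figure D4:**
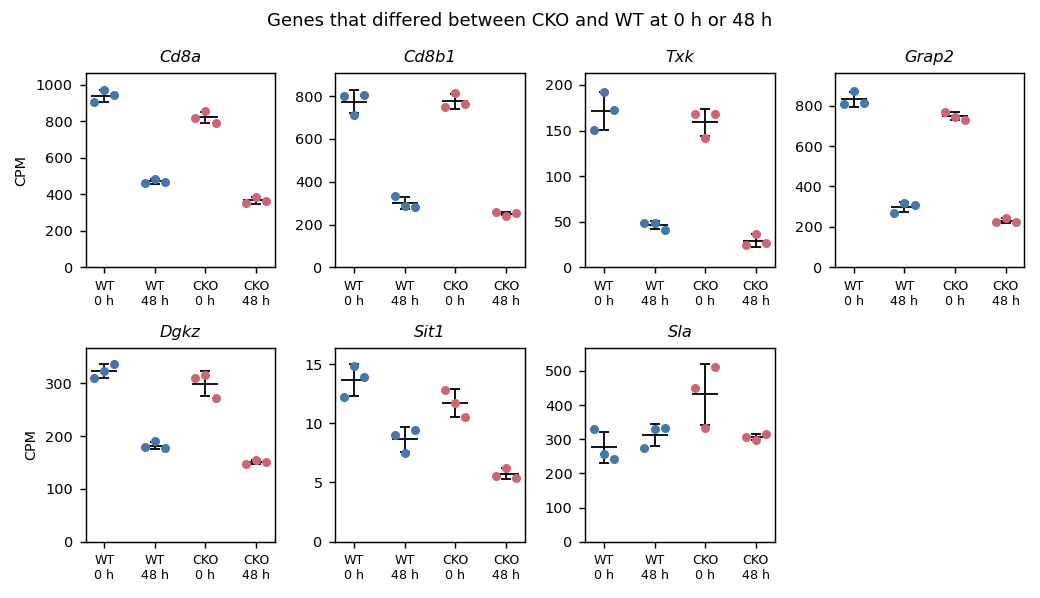
CPM of the 7 genes called between the genotypes, each point 1 library, with the mean and SD of 3; blue is WT and red is CKO. For Cd8a the CKO mean is 822.1 CPM against 938.8 CPM at 0 h and 366.8 against 470.8 CPM at 48 h, and the axes start at 0.

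For Cd3e, Trac, Lck and Zap70 edgeR called no difference at 48 h over the 12 libraries. The difference was -0.10 for Cd3e (interval of 2 SE, -0.23 to 0.03; adjusted p = 0.463), -0.09 for Trac (-0.21 to 0.02; adjusted p = 0.469), -0.10 for Lck (-0.22 to 0.01; adjusted p = 0.371) and -0.18 for Zap70 (-0.30 to -0.07; adjusted p = 0.0822). Zap70 was called lower in CKO by DESeq2 (adjusted p = 0.0465) and without WT 48 h replicate 1 (0.0269). Cd3d lay at the edge of the threshold, at -0.21 ± 0.060 (adjusted p = 0.0517), and was called lower by DESeq2 (0.0265), without a count filter (0.0313) and with a stricter one (0.0494). The gamma-delta constant gene Trdc, no member of the set, was higher in CKO at 0 h by 1.05 ± 0.201 (adjusted p = 0.0122) and at 48 h by 1.40 ± 0.236 (adjusted p = 0.00804), with means of 42.6 and 87.8 CPM at 0 h. Its part in the lower Cd8a and Cd8b1 was not tested.

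The response to stimulation was then compared between the genotypes by the interaction. No gene of the 39 was called by edgeR, beside 1.38% of all tested genes (0.609% higher and 0.772% lower). An unadjusted edgeR p under 0.05 was seen in 12 of the 39, for which the share over all genes was not computed. The lowest adjusted p was 0.185 (Ptpn22, -0.26 ± 0.088). DESeq2 called 1 gene, Sla (-0.66, adjusted p = 0.0257). The estimate was below 0 in 28 of 39 genes, beside 8108 of all 15935 genes tested. The median was -0.09, beside -0.01 over all genes. Cd8a stood at -0.17 ± 0.079 (adjusted p = 0.380) and Grap2 at -0.22 ± 0.092 (adjusted p = 0.315), so the size of the genotype difference was not shown to change between 0 h and 48 h.

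The WT libraries were not equally close to each other for 3 genes, which were chosen after their values were seen. Cbl had 300.9, 526.4 and 373.7 CPM in WT replicates 1, 2 and 3 at 0 h, and 111.8, 243.3 and 185.8 CPM at 48 h, while CKO libraries had 320.0 to 353.6 CPM and 141.3 to 141.5 CPM. Ubash3b had 13.6, 28.1 and 22.6 CPM and then 8.89, 26.1 and 19.3 CPM in WT, and 23.5 to 26.2 and 13.6 to 14.6 CPM in CKO. Cd3g, given above, was lowest in replicate 1 and highest in replicate 2 of WT at both times.

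In Cbl the coefficient of variation was 28.7% at 0 h and 36.6% at 48 h in WT, and only 2.83% and 1.28% of 8930 genes with a mean of at least 10 CPM varied more. The 3 genes are on chromosome 9. Of the other members there, Cd3e was lowest in WT replicate 1 and highest in replicate 2 at 48 h only. Cd3d, Csk and Nck1 had this order at neither time. Il10ra, the interleukin-10 receptor gene on the same chromosome and no member of the set, was picked by hand, outside the gene lists. It had the opposite order in WT, with 116.2, 36.0 and 68.4 CPM at 0 h and 295.3, 148.1 and 180.2 CPM at 48 h. How many of all genes, or of the genes on chromosome 9, had either order was not counted. Rasgrp1, a member on chromosome 2, was also lowest in WT replicate 1 and highest in replicate 2 at both times. Its WT libraries had 123.2, 168.8 and 167.9 CPM at 48 h. What set these libraries apart was not tested. Without WT replicate 1 of both times, Cd3g was lower in CKO at 48 h, at a log2 difference of -0.55 (adjusted p = 0.000763), and so was Ubash3b, at -0.70 (adjusted p = 0.0011), neither of which was called over all 12 libraries without a replicate block. With the block Cd3g was called (-0.35, adjusted p = 0.0402).

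**Figure D5:**
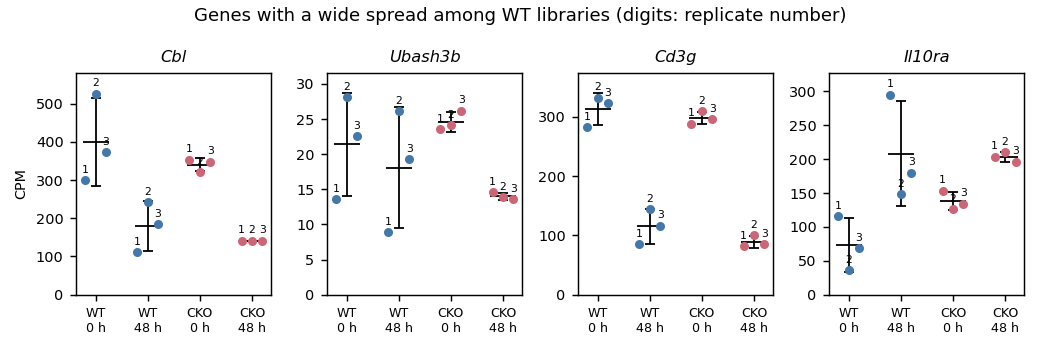
CPM of Cbl, Ubash3b, Cd3g and Il10ra by library, with the replicate number beside each point and the mean and SD of each group. In WT, replicate 2 is highest and replicate 1 lowest for the first 3 genes at both times, and the order is reversed for Il10ra; the CKO libraries lie closer together.

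Beyond the 39 genes, 65 other genes of the receptor pathway were listed and tested. In WT 14 rose and 37 fell (21.5% and 56.9%, beside 38.7% and 39.1% of all genes tested). In CKO 18 rose and 37 fell (27.7% and 56.9%, beside 38.5% and 39.2%). The medians were -0.31 and -0.30, beside -0.03 and -0.04 over all genes. The smallest p among those that fell belonged in both genotypes to Tnfaip3, the NF-kappaB inhibitor A20 (from 2895.1 ± 54.2 to 128.6 ± 3.16 CPM in WT and from 3238.7 ± 238 to 149.3 ± 3.09 CPM in CKO), Pde4b, a cAMP phosphodiesterase (log2 change -3.63 and -3.43), and Rasal3, a GTPase-activating protein of Ras (-1.97 and -2.06). Among those that rose it belonged to Ptpn7, a phosphatase of MAP kinases (1.75 and 1.70), Hras (2.36 and 2.10) and, in WT, the adaptor Sh2d1a (1.70) or, in CKO, the kinase Map3k7 (1.21).

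Between the genotypes 2 of the 65 were higher and 3 lower in CKO at 0 h (3.08% and 4.62%, beside 4.10% and 3.38% of all genes tested). At 48 h 2 were higher and 7 lower (3.08% and 10.8%, beside 2.35% and 2.19%). Grap, an adaptor related to Grb2, was higher at both times: 97.4 ± 5.19 and 129.4 ± 0.592 CPM at 0 h (0.41 ± 0.063, adjusted p = 0.000313) and 164.8 ± 2.41 and 195.0 ± 14.2 CPM at 48 h (0.24 ± 0.062, adjusted p = 0.0270). At 0 h Sh2d2a was higher (0.26), and Cd2ap (-0.29), the kinase Tec (-0.37) and the exchange factor Sos2 (-0.28) were lower. At 48 h Tnfaip3 was higher (0.22), and Pik3cd, the delta catalytic subunit of phosphoinositide 3-kinase (-0.24), the adaptor Lax1 (-0.43) and the calcium channel Itpr2 (-0.48) were lower.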

How the data were processed

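RNA was measured in 12 libraries prepared from TRIzol extracts with the TruSeq Stranded mRNA chemistry, per the labels' protocols. What the authors deposited is a table of unscaled whole-number counts for each Ensembl gene ID. The submitters' processing notes name the build GRCm39 and the tools cutadapt, DESeq2 and HISAT2 (version 2.2.1), without saying what each did. The sources used here give no counting program, annotation release or strand setting. Symbols were matched by ID for 52073 of 56691 IDs (the rest held 0.249% of counts), and chromosomes, exon lengths and promoters came from GRCm38, used for names and description.

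Counts were fitted with edgeR 4.0.16 in R 4.3.3 (TMM, filterByExpr, robust quasi-likelihood, 1 mean per group, 12 libraries, 8 residual degrees of freedom), with two-sided p adjusted by Benjamini-Hochberg over 15935 genes. The 39 genes and all lists were chosen with earlier results of these data known. All members could be named; values in each library are given for set core genes, those called between genotypes and the largest WT change per role, with Lcp2, Cblb and the WT-spread genes added after their values were seen. Of other pathway genes, up to 3 per contrast and direction with the smallest p are named. The fit was tested on simulated data with 200 changed genes. Alternatives were other scalings and filters, replicate blocks, DESeq2 1.42.0, fits of the compared groups only, a minimum log2 change of 1, and fits that left out libraries. Replicates of a group differed by more than counting error. Tables and figures used Python 3.11.15, pandas 2.3.3 and matplotlib 3.10.9.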

Additional observations from a re-analysis of the deposited data

Results flagged for a closer look

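The response to stimulation differed between WT and CKO, by the edgeR interaction test, in Senp1 and in 3 of the 65 other pathway genes, beside 1.38% of all genes tested. Senp1, the targeted gene, rose less in CKO, by a log2 difference of -0.67 ± 0.098 (adjusted p = 0.000926). Sos2, a Ras exchange factor, fell in WT (-0.23) and rose in CKO (0.26), a difference of 0.48 ± 0.113 (adjusted p = 0.0352). Sh2d2a, an adaptor that binds Lck, fell by 0.35 in WT and by 0.82 in CKO, a difference of -0.47 ± 0.108 (adjusted p = 0.0329). Pik3cd fell by 0.83 in WT and by 1.17 in CKO, a difference of -0.34 ± 0.078 (adjusted p = 0.0334).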

How the results depend on the processing

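Over single genes and settings, 3038 of 3120 results kept their side of the threshold, 44 lost the call, 38 gained one and 0 reversed. Estimates that were not called could still change sign, as for Themis in WT activation (-0.06 to 0.13 over the settings). At a log2 change of at least 1, 1 gene rose and 13 fell in WT, 1 rose and 14 fell in CKO, and 0 differed between genotypes at either time. Library totals without scaling left 0 genes lower in CKO at 0 h. Without a count filter 0 genes were higher and 0 lower at 0 h, 1 was higher at 48 h (Rasgrp1), and the interaction called 1 higher and 1 lower (Rasgrp1 and Txk). DESeq2 called 2 genes higher at 0 h, 8 lower at 48 h (Cd3d and Zap70 added) and 1 lower in the interaction, and fits of the compared groups only left 0 higher and 0 lower at 0 h; the interaction could not be fitted there. Leaving out single libraries gave 0 to 1 genes higher and 0 to 2 lower at 0 h, 0 to 1 higher and 2 to 6 lower at 48 h, and 0 to 3 lower in the interaction; the lowest count at 48 h, 2, came without CKO 48 h replicate 1 or 3, and the highest in the interaction, 3 (Fyn, Grap2 and Ptpn22), without WT 48 h replicate 1. Without WT replicate 1 of both times, 2 were higher and 2 lower at 0 h, 9 were lower at 48 h and 1 was lower in the interaction. The cause of these changes was not tested.

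Same-numbered WT libraries correlated at 0.211, 0.228 and 0.078 in their deviations from the group means and CKO libraries at 0.059, 0.067 and 0.085. Within a genotype each library correlated best with its own number. The labels do not say what the numbers mark, so the main fit did not pair samples and replicate blocks were kept as alternatives. Whether the numbers mark shared animals or days was not tested. With the replicate number as a block, 0 genes were higher in CKO at 0 h and 7 were lower at 48 h (Cd3g added), and Ubash3b fell in CKO; with the block within each genotype the interaction called 1 gene higher (Rasgrp1, 0.36, adjusted p = 0.0310), Ubash3b fell in WT (adjusted p = 0.0274) and in CKO (2.73e-06), and the fall of Sla in CKO was no longer called. With 3 libraries a group, small differences were imprecise. Sit1 and Ubash3b stood under 30 CPM in every library. A low level was not needed for a wide spread, since Cbl varied by 28.7% at 0 h and 36.6% at 48 h in WT.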

Other observations

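Shares of single beta V segments were compared for the 6 with the highest mean share over all libraries, and 2 of them, chosen after their values were seen, did not overlap between the genotypes at either time. By CPM, 24.6% of all genes tested did not overlap between the genotypes at 0 h and 23.7% at 48 h. These shares are for each time alone and for CPM, not for shares of the beta V counts. The share of genes apart at both times was not computed. Trbv12-2 took 11.03% to 12.1% of the beta V counts in WT and 8.79% to 9.15% in CKO at 0 h, and 8.31% to 11.5% in WT and 6.26% to 7.54% in CKO at 48 h. Trbv13-2 went the other way, with 8.54% to 9.24% in WT and 9.63% to 11.4% in CKO at 0 h, and 6.74% to 7.37% and 8.42% to 9.26% at 48 h. The level of Trbv12-2 was lower in CKO, at a log2 difference of -0.37 ± 0.094 at 0 h (edgeR adjusted p = 0.0190) and -0.47 ± 0.103 at 48 h (adjusted p = 0.00976). The level of Trbv13-2 was not called (0.20 ± 0.085, adjusted p = 0.166, and 0.29 ± 0.093, adjusted p = 0.0885). Of 22 segments tested, 1 was called between genotypes at each time, beside 7.48% of all genes at 0 h and 4.54% at 48 h. No single beta V segment took more than 12.1% of the beta V counts in any library. V segments are similar in sequence, so reads may have been divided among them by the authors' counting.

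The joining segments were also at lower sums after stimulation. Alpha J segments summed to 52.9 ± 4.67 CPM in WT at 0 h and 7.76 ± 2.04 CPM at 48 h, and to 70.5 ± 14.2 and 7.44 ± 0.604 CPM in CKO. Beta J segments summed to 65.4 ± 9.13 and 14.3 ± 2.07 CPM in WT, and to 65.6 ± 3.91 and 15.2 ± 0.0388 CPM in CKO. The difference between J segments and constant genes was not tested.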
